A study of Mus musculus with 10 samples.

Results

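The 10 genes described here encode proteins of the lysosomal membrane (Cd68, Lamp1, Lamp2, Laptm5, Scarb2, Tmem106b and Npc1), a Rab GTPase of late endosomes and lysosomes (Rab7b) and 2 precursors that are cut inside the lysosome (Grn, which encodes progranulin, and Psap, which encodes prosaposin). They were chosen as a list of gene symbols, with earlier results of these data known. All 10 of 10 were found among the 24421 gene symbols of the count files, and all 10 passed the filter on low counts that left 18727 genes for testing.

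RNA was sequenced from the microglial fraction of the cortex of 9-month-old mice, with 3 libraries from WT mice, 4 from APP/PS1 mice and 3 from APP/PS1 mice injected with N-AS, written APP/PS1+N-AS. APP/PS1 is a transgenic mouse line for Alzheimer's disease that over-expresses human APP with the Swedish mutation together with a mutant presenilin 1, so both transgenic groups carry the same transgenes; the promoters are not given in the sources used here. N-AS is N-acetyl sphingosine, a sphingolipid that was injected subcutaneously every day at 30 mg/kg for 8 weeks from 7 months of age. Each library pooled 2 mice, so a library is the replicate, and p-values measure the spread between pools. The labels name no treatment for the WT and APP/PS1 groups, while the study's text describes the APP/PS1 mice as given vehicle. The cortex was digested with papain and the cells were separated on a density gradient, with no antibody step given.

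Lysosomes receive material from phagocytosis and autophagy, and a dense coat of glycosylated membrane proteins, mainly Lamp1 and Lamp2, lines the inside of their membrane. Cd68 belongs to the same family and is used as a marker of phagocytic microglia and macrophages. Progranulin and prosaposin travel to the lysosome together; progranulin is cut into granulins, and prosaposin into the saposins that activate sphingolipid hydrolases. Loss of GRN in people causes frontotemporal dementia or, with both copies lost, a lysosomal storage disease, TMEM106B modifies the first of these, and loss of NPC1 blocks the exit of cholesterol from the lysosome.

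Sequence upstream of the transcription start was searched because members of lysosomal gene networks often share a binding motif of the MiT/TFE factors. RefSeq windows of GRCm38.p6, each from 250 bases before to 50 bases after a start, were found for 8 of the 10 members (9 windows, since Psap has 2); Rab7b and Npc1 were not among them. The stretches below lie upstream of the annotated exons and are shown for 3 members that were higher in APP/PS1 and for Lamp1, whose window held the motif most often. Capitals mark CACGTG, the core of the E-box, in Lamp1 and TCACATGA, the reverse complement of the M-box TCATGTGA, in Grn; the other 2 hold neither.
Cd68, chr11:69666171-69666320, minus strand: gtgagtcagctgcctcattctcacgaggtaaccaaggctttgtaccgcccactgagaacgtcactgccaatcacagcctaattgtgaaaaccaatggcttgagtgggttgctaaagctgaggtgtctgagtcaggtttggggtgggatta
Grn, chr11:102430257-102430314, plus strand: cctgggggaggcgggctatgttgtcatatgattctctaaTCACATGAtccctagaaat
Lamp1, chr8:13159011-13159160, plus strand: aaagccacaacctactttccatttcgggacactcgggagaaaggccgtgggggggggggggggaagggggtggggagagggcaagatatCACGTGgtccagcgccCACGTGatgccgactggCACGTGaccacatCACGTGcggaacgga
Lamp2, chrX:38456461-38456610, minus strand: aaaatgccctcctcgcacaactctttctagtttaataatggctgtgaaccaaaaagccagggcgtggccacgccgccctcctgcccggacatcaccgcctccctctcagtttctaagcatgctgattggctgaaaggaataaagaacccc
In its window Lamp1 held CACGTG 4 times, beginning 61, 45, 28 and 15 bases before the start. Of all 32851 windows, 7.15% held CACGTG on either strand, and Lamp1 was the only 1 of the 8 members with it. Grn was the only 1 with the M-box, which began 211 bases before its start and was found in 0.986% of all windows; this motif was added to the search after the sequences had been seen. The PU.1 motif GAGGAAGT, of a factor that microglia need, was in 3.2% of all windows and in 0 of the 8 members'. A match is a description of these letters and not a binding site.

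The total count was between 8805804 and 19432075 reads per library. The fraction held cells other than microglia: no gene of the 8 marker lists was at 0 in any library, and Slc1a2 of astrocytes, the highest marker of its list, had a mean of 1923 CPM over the 10 libraries. Levels are in CPM, the reads of a gene as a share of the library total, here scaled by the TMM method, which evens out libraries whose totals are taken up by a few genes. The summed level of the 14 microglial markers ran from 880 to 1258 CPM in the WT libraries, from 2530 to 3248 CPM in those of APP/PS1 and from 1624 to 2056 CPM with N-AS, without overlap between the groups. The study's methods name male mice, but Xist, the RNA with which female cells silence an X chromosome, had 33 to 37 reads in WT against 5253 to 11188 in APP/PS1. In APP/PS1+N-AS replicates 1, 2 and 3 it gave 7024, 8848 and 29 reads. So WT and APP/PS1 differ in Xist as well as in genotype, and the part of sex in any difference between them cannot be told apart from that of genotype. The libraries also fall into those that the labels number 1 to 6 (replicates 1 and 2 of each group) and 7 to 10 (the others), and values within each set are given beside the results.

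Per kilobase of exon, prosaposin and Lamp1 transcripts were the most abundant of the 10 in every group, and Rab7b the least. In WT the mean level was 189 ± 46.5 CPM per kb for Psap and 74.6 ± 10.4 for Lamp1 (SD, n = 3). Grn (22.4 ± 2.65), Scarb2 (20.0 ± 2.14), Tmem106b (15.6 ± 4.56), Laptm5 (15.5 ± 1.13), Npc1 (13.3 ± 1.97) and Lamp2 (13.1 ± 0.869) followed, and the libraries of each overlapped those of the next in this order. Cd68 was lower, at 6.62 ± 0.196, and Rab7b lowest at 0.652 ± 0.0711 CPM per kb, neither overlapping its neighbour.

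In APP/PS1 the order of levels differed from that in WT. Psap (247 ± 21.3) and Lamp1 (100 ± 15.0; SD, n = 4) still led, but Grn reached 80.8 ± 7.20 CPM per kb, its highest library overlapping the lowest Lamp1 library. Laptm5 (57.7 ± 5.84) and Cd68 (55.9 ± 9.63) overlapped each other and stood above every library of Lamp2 (24.5 ± 3.41) and Scarb2 (24.0 ± 2.13), which also overlapped. Tmem106b (15.1 ± 2.13) and Npc1 (11.997 ± 1.03) came next, and Rab7b was at 2.23 ± 0.855. In APP/PS1+N-AS the first 5 were the same genes in the same order, with Grn at 51.9 ± 14.4, Laptm5 at 35.4 ± 11.4 and Cd68 at 33.2 ± 12.5 CPM per kb (SD, n = 3). Exon lengths are those of all basic GENCODE M21 models of a gene together, so a gene whose microglial transcript is shorter than this is given too low a level.

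**Figure D1:**
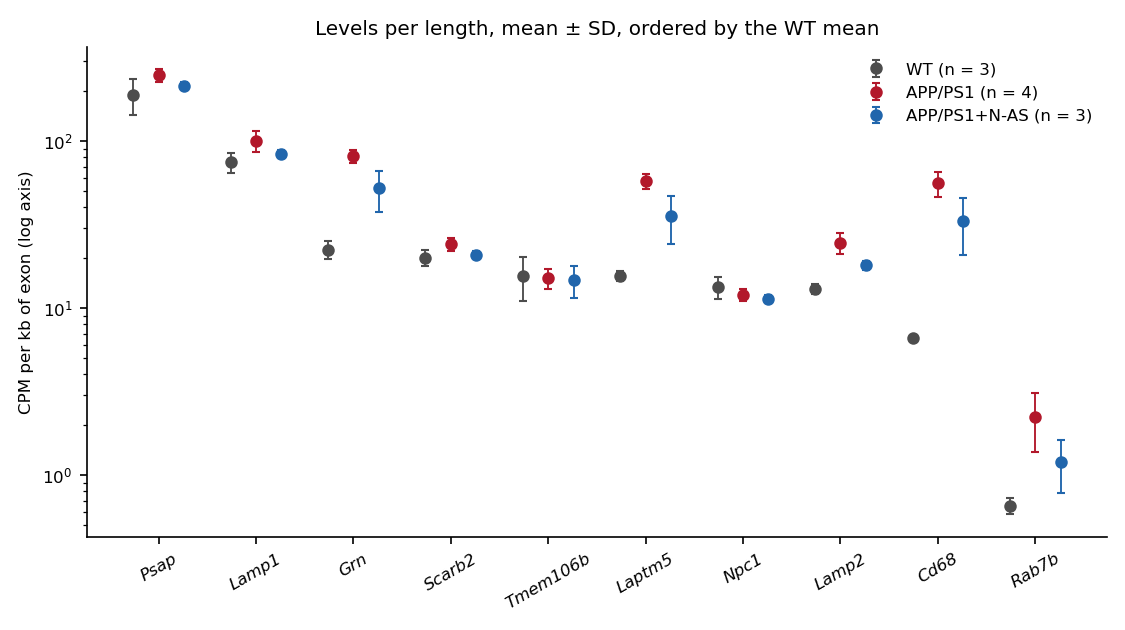
Mean level of the 10 genes in CPM per kb of exon (vertical axis, logarithmic) with the SD as error bars, ordered by the WT mean; grey is WT (n = 3), red APP/PS1 (n = 4) and blue APP/PS1+N-AS (n = 3). Cd68, ninth in WT at 6.62 CPM per kb, is level with Laptm5 in APP/PS1, while Tmem106b and Npc1 keep nearly the same height in all groups.

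Between APP/PS1 and WT, 5 of the 10 genes passed the test and all 5 were higher in APP/PS1: Cd68, Laptm5, Grn, Rab7b and Lamp2. The background was 2.67% of the 18727 genes called higher (edgeR's quasi-likelihood test, Benjamini-Hochberg adjusted p under 0.05 over all genes tested). The libraries of 6 members, these 5 and Lamp1, did not overlap between the groups, against 8.18% of all genes that were higher without overlap. The median log2 fold change of the 10 was 0.67, beside −0.07 over all genes tested. As these are bulk samples, fewer cells of a type and less RNA per cell cannot be told apart.

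Cd68 was at 8.52, 8.04 and 8.38 CPM in WT replicates 1 to 3 and at 58.0, 71.4, 65.5 and 86.5 CPM in APP/PS1 replicates 1 to 4. The WT libraries were nearly equal, with a coefficient of variation of 2.96%, and the lowest APP/PS1 library stood far above them. The log2 fold change was 3.08 (SE 0.27, adjusted p = 0.000379 by edgeR), that is 8.46-fold, the 12th lowest p of all genes tested.

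Laptm5, a lysosomal protein with several membrane spans that is made in blood-derived and microglial cells, was at 38.2, 39.2 and 43.7 CPM in WT and at 131, 147, 155 and 167 CPM in APP/PS1. The log2 fold change was 1.89 (SE 0.22, adjusted p = 0.00129 by edgeR), or 3.71-fold. Both groups were tight, with coefficients of variation of 7.27% and 10.1%.

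Lamp2, which besides its place in the lysosomal coat serves in chaperone-mediated autophagy and in fusion with autophagosomes, was at 61.0, 69.6 and 66.8 CPM in WT and at 105, 116, 145 and 128 CPM in APP/PS1. Its log2 fold change was 0.91 (SE 0.14, adjusted p = 0.00550 by edgeR), or 1.88-fold, smaller than that of Cd68 or Laptm5 but without overlap. Lamp2 lies on chromosome X, at 38401357 to 38456454 of GRCm38. APP/PS1+N-AS replicate 3, the N-AS-treated library with 29 Xist reads, had 86.7 CPM of Lamp2, beside 88.8 and 96.8 CPM in the other N-AS-treated libraries, all 3 above every WT library. The part of sex in the Lamp2 values was not tested.

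Grn was at 45.2, 55.9 and 56.0 CPM in WT and at 166, 187, 199 and 204 CPM in APP/PS1. The APP/PS1 libraries all lay well above those of WT, and the log2 fold change was 1.85 (SE 0.20, adjusted p = 0.000979 by edgeR), or 3.60-fold. The other precursor that is cut in the lysosome, Psap, was at 408, 489 and 658 CPM in WT and at 611, 652, 712 and 741 CPM in APP/PS1. WT replicate 3 lay among the APP/PS1 libraries, and the log2 fold change of 0.39 (SE 0.19, adjusted p = 0.323) did not pass.

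Rab7b, a GTPase that acts between late endosomes, lysosomes and the Golgi, had few reads, 28 to 56 in the WT libraries and 83 to 328 in APP/PS1. Its levels were 3.32, 2.85 and 2.70 CPM in WT and 8.02, 6.85, 10.02 and 15.6 CPM in APP/PS1, without overlap but with a spread of 38.3% (coefficient of variation) in APP/PS1. The log2 fold change was 1.79 (SE 0.34, adjusted p = 0.0175 by edgeR), or 3.47-fold. This call was lost without WT replicate 1 (adjusted p = 0.0508) and without WT replicate 2 (adjusted p = 0.0641), with log2 fold changes of 1.88 and 1.78.

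Lamp1, the other main protein of the lysosomal coat, was at 163, 191 and 145 CPM in WT and at 197, 193, 251 and 254 CPM in APP/PS1. The groups did not overlap, WT replicate 2 lying just under APP/PS1 replicate 2, but the log2 fold change of 0.43 (SE 0.16, adjusted p = 0.197) did not pass. Scarb2, a membrane protein that also serves as a sorting receptor for the lysosome, was at 84.3, 104 and 92.8 CPM in WT and at 100, 111, 116 and 124 CPM in APP/PS1. WT replicate 2 overlapped APP/PS1 here, and the log2 fold change was 0.26 (SE 0.13, adjusted p = 0.323).

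Tmem106b, a small glycoprotein of the lysosomal membrane, was at 75.5, 79.8 and 125 CPM in WT and at 75.6, 84.0, 101 and 101 CPM in APP/PS1, with its highest value in WT replicate 3. Its log2 fold change was −0.05 (SE 0.21, adjusted p = 0.936), with the sign depending on WT replicate 3 (0.23 without it). Npc1, the membrane protein that passes cholesterol out of the lysosome, was at 69.0, 80.2 and 59.6 CPM in WT and at 55.2, 63.6, 68.0 and 63.8 CPM in APP/PS1. The groups overlapped, with a log2 fold change of −0.15 (SE 0.13, adjusted p = 0.620).

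**Figure D2:**
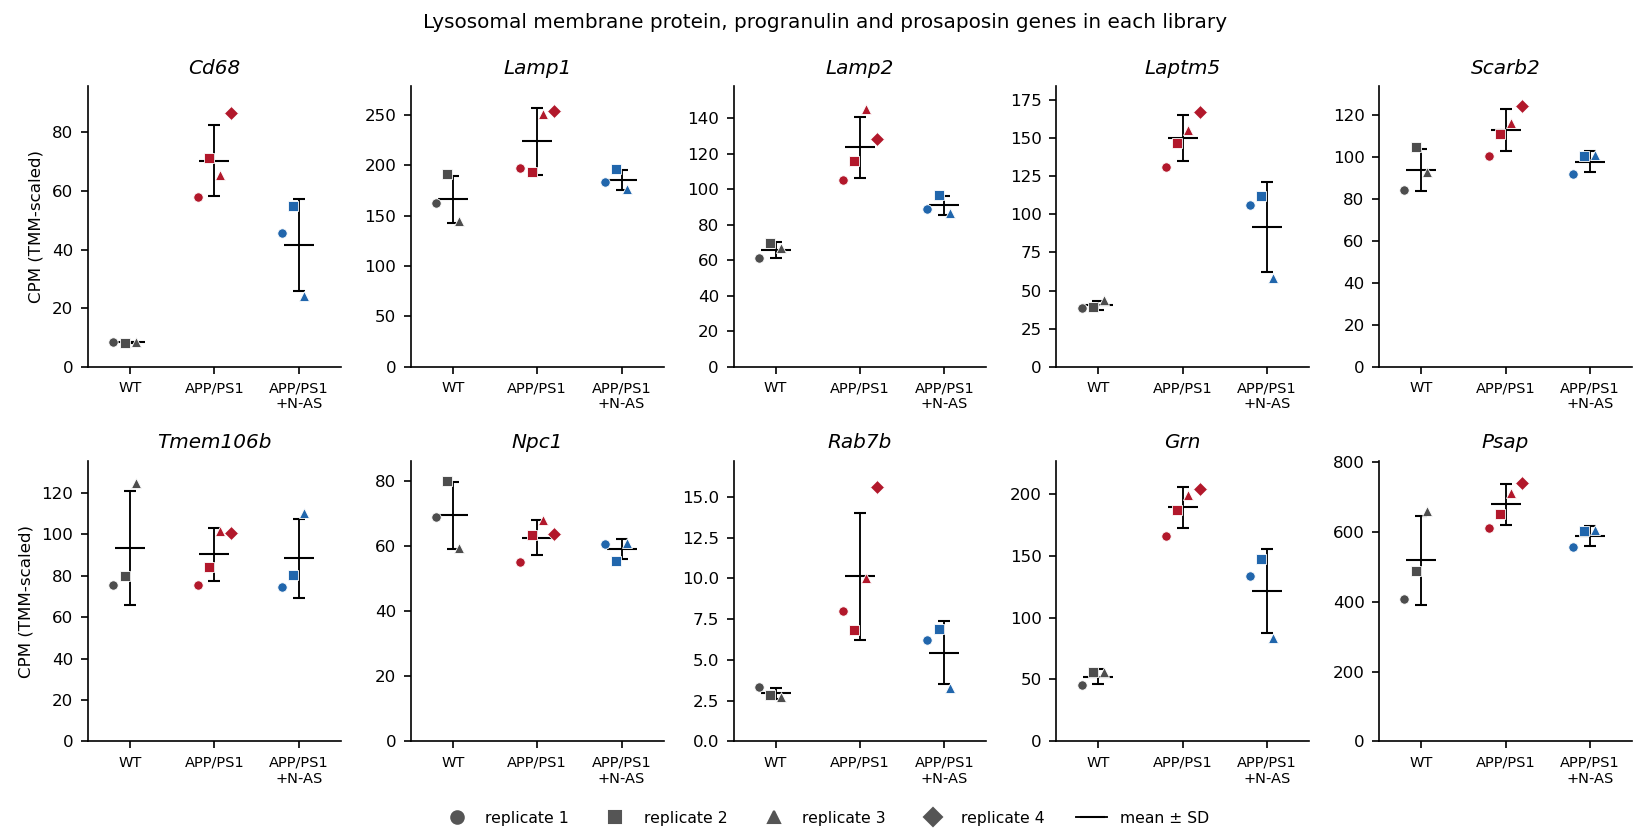
Level of each gene in CPM (vertical axes, linear from 0) in every library, with a marker shape for each replicate number and the mean ± SD in black. In APP/PS1 the points of Cd68, Laptm5, Grn, Lamp2 and Rab7b lie above all WT points, and APP/PS1+N-AS replicate 3 (triangle) is the lowest N-AS-treated library for Cd68, Laptm5, Grn and Rab7b.

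The differences were present in both sets of library numbers, although libraries 7 to 10 hold only 1 WT library, replicate 3. Within libraries 1 to 6 and within libraries 7 to 10, the mean log2 CPM of APP/PS1 minus that of WT was 2.94 and 3.15 for Cd68, 1.84 and 1.88 for Laptm5, 1.81 and 1.85 for Grn, 0.76 and 1.03 for Lamp2 and 1.24 and 2.16 for Rab7b. For Lamp1 it was 0.15 and 0.80. WT replicate 3 differed from the other WT libraries in markers of other cells. Its neuronal markers summed to 5003 CPM, beside 1488 and 1759 in WT replicates 1 and 2. Its sums for endothelial cells, pericytes and smooth muscle, and oligodendrocytes were the lowest in WT (471, 443 and 2374 CPM). The part of this in the values was not tested. The exons of Lamp1 share 249 bases with Grtp1 on the opposite strand, those of Grn 68 bases with Fam171a2, and those of Npc1 511 bases with Rmc1 and 90 with Gm15956. Whether the counting used strand is not stated, so reads from these stretches cannot be assigned with certainty.

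Ratios within a library, which do not depend on how libraries are scaled, show how unevenly the members moved. The mean log2 ratio of Cd68 to Lamp1 was −4.29 ± 0.23 in WT (SD, n = 3) and −1.67 ± 0.22 in APP/PS1 (n = 4), a difference of 2.62. That of Lamp2 to Lamp1 differed by 0.47, that of Grn to Psap by 1.44, and that of Rab7b to Rab7, the better-known GTPase of late endosomes, by 1.67. In all 4 ratios the groups did not overlap, and the exact two-sided permutation test gave p = 0.0286, the smallest that 4 libraries against 3 allow. Adjusted over the 12 ratio tests this was 0.0686, so none passed 0.05.

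**Figure D3:**
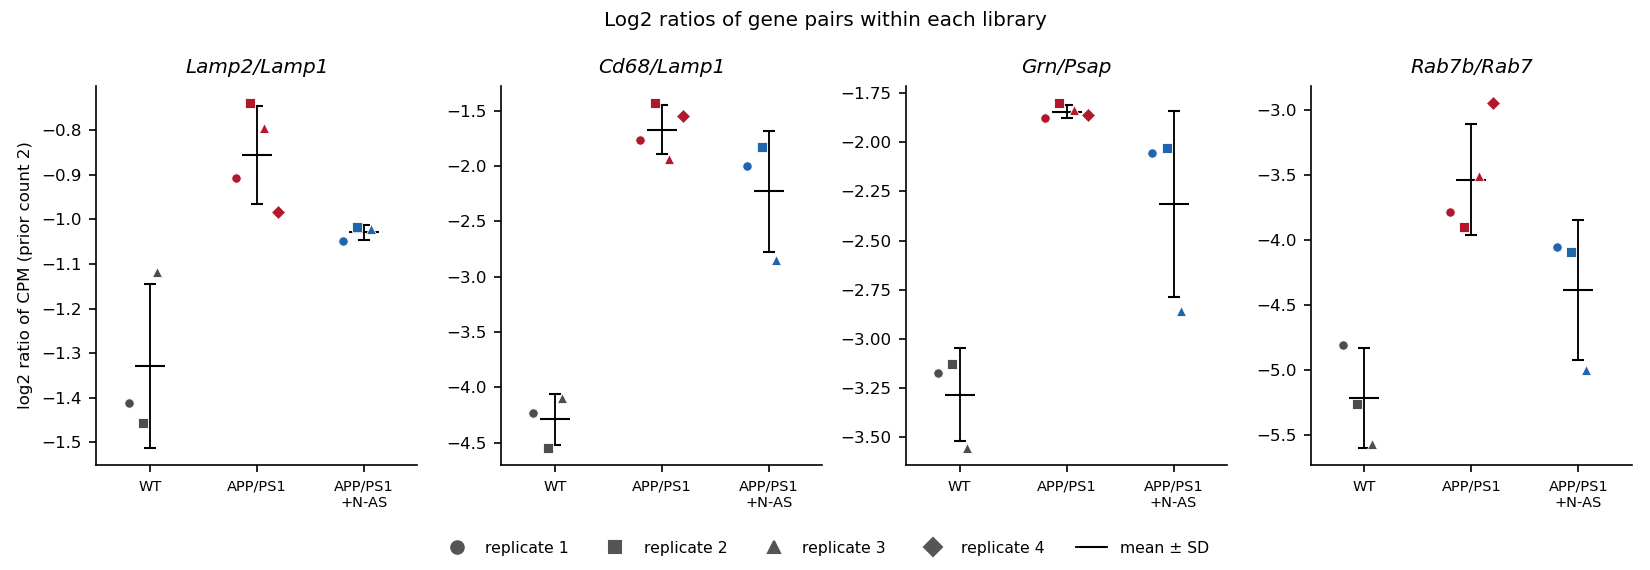
Log2 ratio of CPM of 4 gene pairs (vertical axes, prior count of 2) in every library, by replicate number, with the mean ± SD in black. The 4 APP/PS1 libraries lie above the 3 WT libraries in each panel; in Grn/Psap they span only −1.88 to −1.80, while the N-AS-treated libraries span −2.86 to −2.03.

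The microglial markers moved with these genes, since 10 of the 14 were called higher in APP/PS1 than in WT, with a median log2 fold change of 1.35. Members were therefore also set against the mean log2 CPM of the 14 markers in the same library. On this scale Cd68 was higher in APP/PS1 than in WT by 1.78, Laptm5 by 0.62 and Grn by 0.58 (exact two-sided permutation p = 0.0286 for each, the smallest possible). Rab7b differed by 0.40 (p = 0.4, exact permutation test) and Lamp2 by −0.37 (p = 0.0571, exact permutation test). The other 5 lay lower relative to the markers, with differences of −0.84 for Lamp1, −0.85 for Psap, −1.0004 for Scarb2, −1.29 for Tmem106b and −1.41 for Npc1 (exact permutation p = 0.0286 each). Over the 30 tests of this kind, the adjusted p of each of these 8 was 0.0952, so none passed. Of other cell types, 3 of the 10 oligodendrocyte markers were called lower in APP/PS1 than in WT, and their sum was 2374 to 6719 CPM in WT and 1872 to 4619 CPM in APP/PS1. The part of cell composition in the differences of the single members was not tested.

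**Figure D4:**
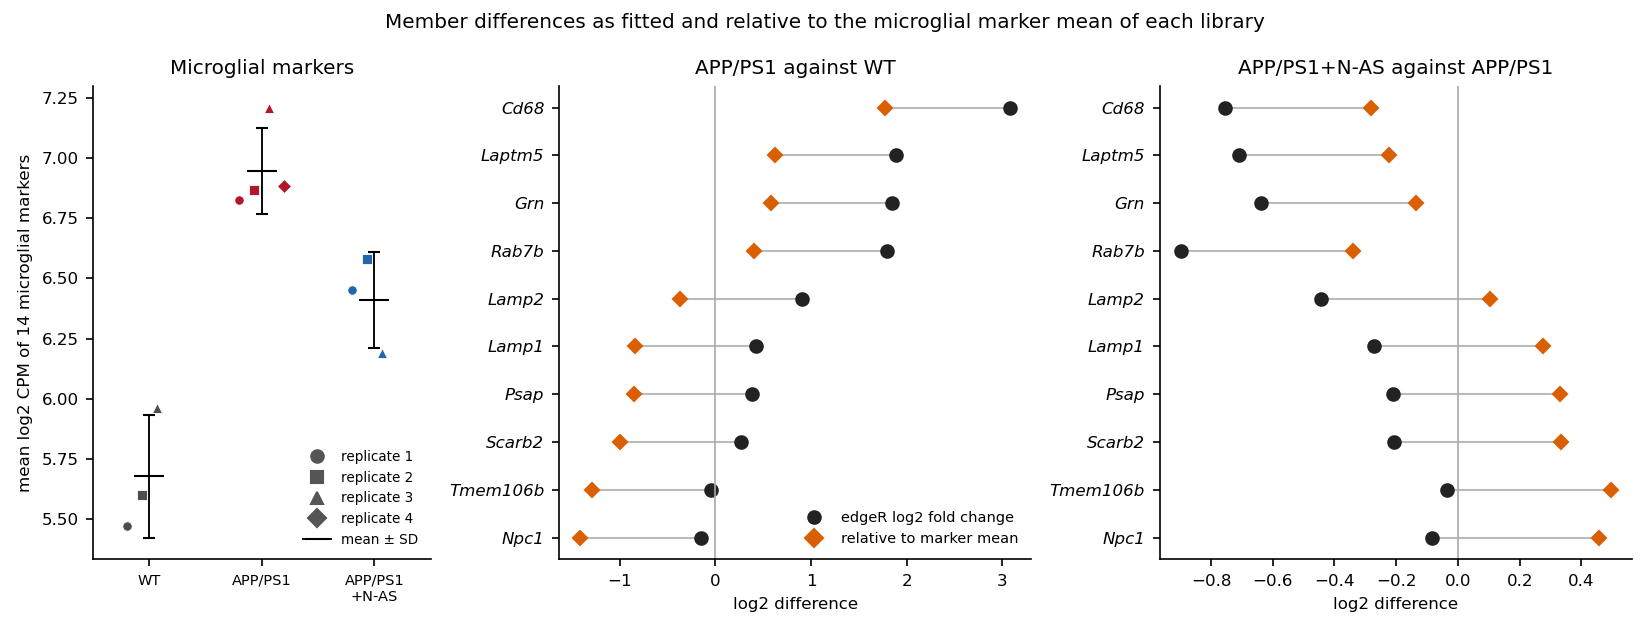
Left, the mean log2 CPM of 14 microglial markers in every library with the mean ± SD; centre and right, the log2 difference of each gene as fitted by edgeR (black circles) and relative to that marker mean (orange diamonds). Set against the markers, Cd68, Laptm5, Grn and Rab7b stay above 0 in APP/PS1 against WT, at 1.78 to 0.40, and the other 6 lie below 0.

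Between APP/PS1+N-AS and APP/PS1, which asks what N-AS injection did to these transcripts in the model, none of the 10 passed an adjusted p of 0.05, nor did any of the 18727 genes (0% by edgeR's quasi-likelihood test). By adjusted p, limma called 0 genes and DESeq2 called 73, none of them a member. Before adjustment (p under 0.05), edgeR gave 895 genes higher (4.78%) and 758 lower. All 10 were fitted lower with N-AS, with a median log2 fold change of −0.36 beside −0.01 over all genes tested. At an unadjusted p under 0.05, 5 of the 10 were lower, against 4.05% of all genes: Cd68, Laptm5, Grn, Lamp2 and Rab7b, the genes that were called higher in APP/PS1. As both comparisons use the APP/PS1 libraries, the opposite signs are not independent of each other. The libraries did not overlap for 5 members (Cd68, Laptm5, Grn, Lamp2 and Psap), against 6.43% of all genes that were lower without overlap.

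Cd68 was at 45.8, 55.0 and 24.3 CPM in APP/PS1+N-AS replicates 1 to 3, all under the lowest APP/PS1 library at 58.0 CPM. Its log2 fold change was −0.75 (SE 0.24, unadjusted p = 0.00956, adjusted p = 0.497 by edgeR). Replicate 3 was far below the other N-AS-treated libraries, and without it the log2 fold change was −0.47 (adjusted p = 0.724). Laptm5 was at 106, 112 and 57.9 CPM and Grn at 134, 148 and 83.3 CPM, again with replicate 3 lowest. Their log2 fold changes were −0.71 (SE 0.21, unadjusted p = 0.00607) and −0.64 (SE 0.19, unadjusted p = 0.00730), both with an adjusted p of 0.494 by edgeR. Without replicate 3 they were −0.45 and −0.42.

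Lamp2, at 88.8, 96.8 and 86.7 CPM, was more even among the N-AS-treated libraries, with a log2 fold change of −0.44 (SE 0.14, unadjusted p = 0.00754, adjusted p = 0.494 by edgeR). Rab7b was at 6.19, 6.89 and 3.25 CPM, so that replicate 2 lay just above the lowest APP/PS1 library, and its log2 fold change was −0.90 (SE 0.32, unadjusted p = 0.0171, adjusted p = 0.510 by edgeR). Psap was at 556, 603 and 605 CPM, just under the lowest APP/PS1 library, and the log2 fold change was −0.21 (SE 0.19). The groups overlapped for the other 4, for which the log2 fold changes were −0.27 for Lamp1 (SE 0.16), −0.21 for Scarb2 (SE 0.13), −0.09 for Npc1 (SE 0.13) and −0.03 for Tmem106b (SE 0.21).

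The spread among N-AS-treated libraries differed between members. The coefficient of variation in APP/PS1+N-AS was 37.8% for Cd68, 35.5% for Rab7b, 32.2% for Laptm5 and 27.8% for Grn, with replicate 3 lowest each time, but 4.73% to 5.90% for Psap, Npc1, Scarb2, Lamp1 and Lamp2. Tmem106b varied by 21.7%, with replicate 3 the highest. Replicate 3 was also the N-AS-treated library with the lowest sum of microglial markers, 1624 CPM beside 1894 and 2056, and the only one without Xist reads at the level of the APP/PS1 libraries; the part of either in these values was not tested.

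Within libraries 1 to 6, where the 2 libraries of each transgenic group all had Xist and Y-linked reads, the log2 difference was −0.36 for Cd68, −0.35 for Laptm5, −0.33 for Grn, −0.25 for Lamp2 and −0.18 for Rab7b. The mean of the microglial markers differed by −0.33 there. Within libraries 7 to 10, which hold only replicate 3 of the N-AS-treated group, the same differences were −1.63, −1.47, −1.27, −0.65 and −1.90, and that of the markers was −0.86. There APP/PS1 replicates 3 and 4 had 13 Y-linked reads each and 8477 and 11188 Xist reads. APP/PS1+N-AS replicate 3 had 2377 Y-linked and 29 Xist reads. The parts of sex and of N-AS therefore cannot be told apart within libraries 7 to 10. Relative to the marker mean over all libraries, Cd68 differed by −0.28 with N-AS (exact permutation p = 0.4), Laptm5 by −0.22, Grn by −0.14 and Rab7b by −0.34. Lamp1, Lamp2, Scarb2, Psap, Tmem106b and Npc1 changed sign on this scale and lay higher, by 0.10 for Lamp2 up to 0.49 for Tmem106b. Within the 3 same-numbered pairs these 6 were higher in 3 of 3, while Cd68, Laptm5 and Grn were lower in 2 of 3 and Rab7b in 1 of 3. Of the 6, Npc1 had the lowest p (0.46 higher, exact permutation p = 0.0286, adjusted p = 0.0952 over the 30 tests).

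The ratio of Grn to Psap differed by −0.47 with N-AS, without overlap (exact permutation p = 0.0286, adjusted p = 0.0686 over the 12 tests). Those of Cd68 to Lamp1, Lamp2 to Lamp1 and Rab7b to Rab7 differed by −0.56, −0.17 and −0.85 (exact permutation p = 0.0857, 0.0571 and 0.0571). Without APP/PS1+N-AS replicate 3 the difference was −0.20 for Grn to Psap, −0.25 for Cd68 to Lamp1 and −0.54 for Rab7b to Rab7, while that of Lamp2 to Lamp1 stayed at −0.18. These tests do not use the replicate numbers, which were not shown to pair the libraries. As a description, same-numbered libraries were set side by side as 3 pairs. Within the 3 pairs all 4 ratios were lower with N-AS in 3 of 3, with mean differences of −0.47, −0.52, −0.22 and −0.65 in the order Grn to Psap, Cd68 to Lamp1, Lamp2 to Lamp1 and Rab7b to Rab7. The exact sign-flip permutation test of the pairs, added after seeing the data, gave p = 0.25 for each, the smallest that 3 pairs allow.

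**Figure D5:**
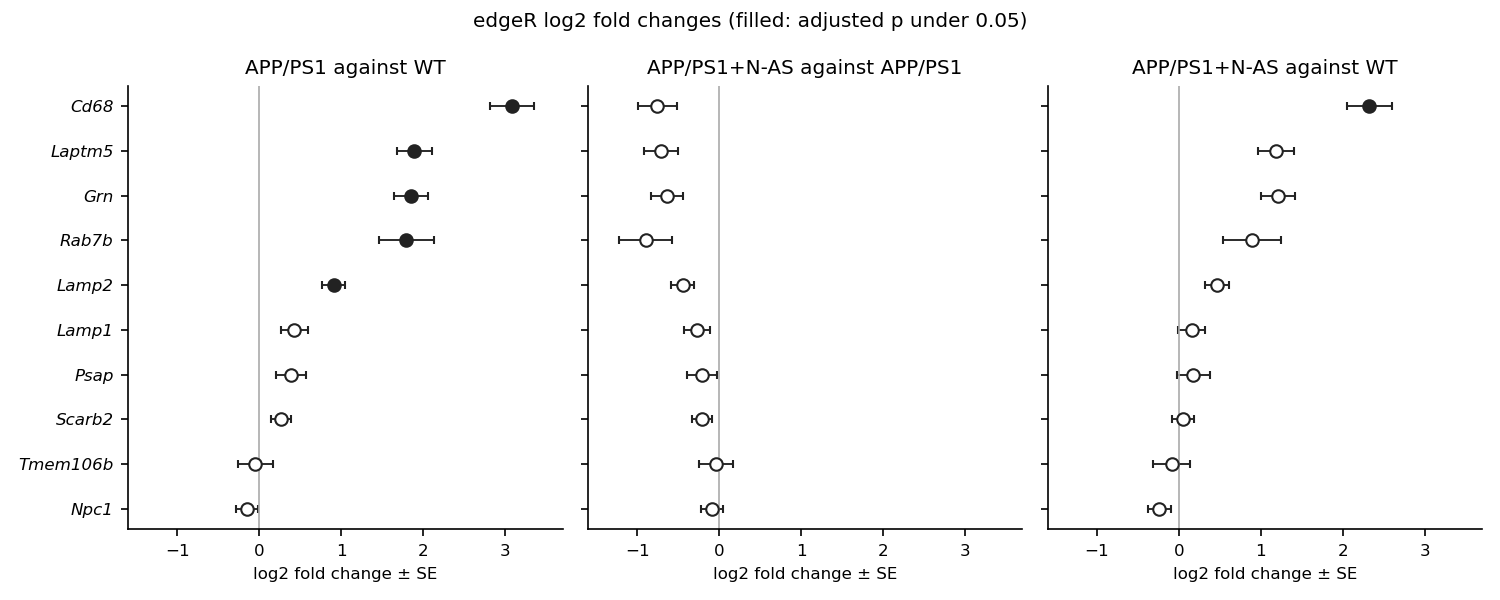
Log2 fold change (horizontal axes) of each gene with its SE in the 3 comparisons, in the order of APP/PS1 against WT; filled circles passed an adjusted p of 0.05 by edgeR. Filled are 5 genes in APP/PS1 against WT, none in APP/PS1+N-AS against APP/PS1, where all 10 lie below 0, and Cd68 alone in APP/PS1+N-AS against WT.

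Between APP/PS1+N-AS and WT, which asks how far the N-AS-treated mice were from WT, Cd68 was the only 1 of the 10 that passed, against 0.176% of all genes called higher. It was 5.01-fold higher, with a log2 fold change of 2.33 (SE 0.27, adjusted p = 0.0160 by edgeR). The call held without WT replicate 3 or APP/PS1+N-AS replicate 3 and was lost without WT replicate 1, WT replicate 2, APP/PS1+N-AS replicate 1 or APP/PS1+N-AS replicate 2, with adjusted p-values of 0.0677 to 0.127 and log2 fold changes of 2.09 to 2.35.

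Grn (1.21, SE 0.21, adjusted p = 0.0593) and Laptm5 (1.18, SE 0.22, adjusted p = 0.0891) were near the threshold on the log2 fold change scale, and both passed without APP/PS1+N-AS replicate 3 (1.45 and 1.46, adjusted p = 0.00489 and 0.00270 by edgeR). For Cd68, Grn, Laptm5 and Lamp2 every N-AS-treated library was above every WT library, against 4.93% of all genes, and for these 4 genes the N-AS-treated libraries thus lay between the other groups. Lamp2 had a log2 fold change of 0.46 (SE 0.14, adjusted p = 0.464) and Rab7b of 0.90 (SE 0.35, adjusted p = 0.663); Rab7b in replicate 3 (3.25 CPM) overlapped WT. Relative to the microglial markers, Cd68 was at 1.50 above WT (exact permutation p = 0.1, the smallest that 3 libraries against 3 allow). On the scale of edgeR the other 5 lay between −0.24 for Npc1 and 0.18 for Psap. The median of the 10 was 0.32, beside −0.04 over all genes tested.

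Relatives of the members covered a wide range of values between APP/PS1 and WT. Tmem106a, a paralogue of Tmem106b, was at 2.23 ± 0.738 CPM in WT and 7.09 ± 1.63 in APP/PS1, with a log2 fold change of 1.71 (SE 0.27, adjusted p = 0.00652 by edgeR), while Tmem106c (0.13, adjusted p = 0.779) did not pass. Laptm4a (0.22, adjusted p = 0.546) and Laptm4b (−0.11, adjusted p = 0.841), paralogues of Laptm5, did not pass either, nor did Rab7 (−0.02, adjusted p = 0.965), Lamp5 (−0.30, adjusted p = 0.709) or Lamp3 (−1.76, SE 1.00, adjusted p = 0.417), which had 1 to 36 reads per library. Npc2, the soluble protein that hands cholesterol to Npc1, rose from 16.8 ± 2.50 to 56.7 ± 11.8 CPM, with a log2 fold change of 1.77 (SE 0.25, adjusted p = 0.00384), whereas Npc1 did not pass. Sort1, the receptor that takes up progranulin, had a log2 fold change of −0.34 (SE 0.17, adjusted p = 0.339). Whether relatives differed from members in their response was not tested.

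Among 42 tested of 43 other proteins of the lysosomal membrane, 6 were called higher and 0 lower in APP/PS1 than in WT, beside 2.67% and 0.796% of all genes. The median log2 fold change was 0.09. The largest were Slc15a3, a transporter of histidine and small peptides (2.44, SE 0.21, adjusted p = 0.000379), Slc11a1, the metal transporter of phagosomes (1.99, SE 0.21, adjusted p = 0.000773) and Slc37a2, a sugar phosphate transporter (1.88, SE 0.25, adjusted p = 0.00269). Tmem106a was the fourth, and Cd63, a tetraspanin (1.57), and Mfsd1 (0.84), both named after their values were seen, completed the 6. With N-AS none of the 42 passed against APP/PS1 by edgeR (1 higher and 7 lower at an unadjusted p under 0.05, beside 4.78% and 4.05% of all genes, median −0.04). By edgeR the lowest unadjusted p-values were those of Slc11a1 (−0.90, unadjusted p = 0.000837) and Slc15a3 (−0.84, unadjusted p = 0.00111), each with an adjusted p of 0.478. Against WT, Slc15a3 remained higher in the N-AS-treated group (1.60, adjusted p = 0.0197 by edgeR) as the only 1 of the 42, beside 0.176% of all genes. The median of the 42 was 0.03.

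The 14 tested partners of prosaposin and progranulin were their sorting and signalling receptors, the hydrolases that saposins serve, and the activator protein Gm2a. Of the 14, 4 were called higher and 1 lower in APP/PS1 than in WT, beside 2.67% and 0.796% of all genes, with a median of 0.16. Glb1, the lysosomal beta-galactosidase, had a log2 fold change of 1.14 (adjusted p = 0.00331), Gm2a, the GM2 ganglioside activator, of 0.85 (adjusted p = 0.0107) and Asah1, acid ceramidase, of 0.65 (adjusted p = 0.0368). Gpr37, a receptor that is abundant in oligodendrocytes, was lower (−1.81, adjusted p = 0.00359), in libraries in which oligodendrocyte markers were lower too; the part of that cell type was not tested. With N-AS none passed against APP/PS1 by edgeR (1 higher and 3 lower at an unadjusted p under 0.05, beside 4.78% and 4.05% of all genes, median −0.07). By edgeR the lowest p-values there were those of Glb1 (−0.68, unadjusted p = 0.00104) and Gm2a (−0.51, unadjusted p = 0.00451). Against WT none passed (4 higher and 1 lower unadjusted, beside 3.64% and 3.09% of all genes, median 0.14), with the lowest p-value for Gpr37 (−1.09, unadjusted p = 0.00212).

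Of 24 tested genes for the fusion and positioning of late endosomes and lysosomes, none passed in any comparison by edgeR; 3 were higher and 0 lower in APP/PS1 than in WT before adjustment (p under 0.05), beside 8.3% and 8.9% of all genes. With N-AS, 2 were lower and 0 higher at that threshold against APP/PS1, beside 4.05% and 4.78% of all genes. Against WT 1 was higher and 0 lower, beside 3.64% and 3.09% of all genes. The median log2 fold change was −0.01 in APP/PS1 against WT, and 0.01 and 0.03 with N-AS against APP/PS1 and WT. Vamp8, a SNARE of late endosomes, came nearest (0.89, adjusted p = 0.0513), followed by Plekhm2, which links lysosomes to kinesin (0.49, adjusted p = 0.161). With N-AS against APP/PS1 the lowest p-values were those of Snapin (−0.35, unadjusted p = 0.0261) and Vamp8 (−0.48, unadjusted p = 0.0453). Against WT they were those of Plekhm1, an adaptor of Rab7 (0.39, unadjusted p = 0.0407), and Snapin (−0.31, unadjusted p = 0.0597).

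On the cholesterol route out of the lysosome, Npc2 was the only 1 of 13 tested genes called between APP/PS1 and WT. It was higher, beside 2.67% of all genes called higher, and the median of the 13 was 0.08. With N-AS none passed by edgeR. Without adjustment (p under 0.05) there were 2 higher and 2 lower against APP/PS1 (median −0.08), beside 4.78% and 4.05% of all genes. Against WT there were 2 higher and 0 lower (median 0.04), beside 3.64% and 3.09% of all genes. The lowest p-values against APP/PS1 were those of Npc2 (−0.81, unadjusted p = 0.00637) and Gramd1a, a carrier of cholesterol to the endoplasmic reticulum (0.35, unadjusted p = 0.0332). The lowest against WT were those of Npc2 (0.96, unadjusted p = 0.00360) and Abca1, the cholesterol exporter (0.42, unadjusted p = 0.0248).

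Of the MiT/TFE factors, which switch on lysosomal genes, and their counterpart Zkscan3, Mitf was the only 1 of 4 tested that was called in APP/PS1 against WT (higher, beside 2.67% of all genes, with a median of 0.18 over the 4). It was at 15.0 ± 2.30 CPM in WT and 25.2 ± 3.09 in APP/PS1, with a log2 fold change of 0.76 (SE 0.16, adjusted p = 0.0254 by edgeR), and at 16.8 ± 1.99 CPM with N-AS, where the difference from APP/PS1 (−0.58, unadjusted p = 0.00315, adjusted p = 0.494) did not pass. Tfe3 just missed the threshold in APP/PS1 against WT (0.54, adjusted p = 0.0528), Tfeb had a log2 fold change of −0.18 (adjusted p = 0.704), and Tfec had 0 to 4 reads per library. With N-AS, Zkscan3 had a log2 fold change of 0.42 against APP/PS1 (unadjusted p = 0.0341). None of the 4 passed with N-AS by edgeR. Before adjustment 1 was higher and 1 lower against APP/PS1, beside 4.78% and 4.05% of all genes, and 0 passed against WT. Against WT the lowest p-values with N-AS were those of Tfe3 (0.28, unadjusted p = 0.0709) and Zkscan3 (0.23, unadjusted p = 0.233).

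Profiles over the 10 libraries were compared by the root-mean-square difference of log2 CPM after each gene's mean was removed, among 18717 genes. The genes nearest to Cd68 were Bcl2a1d, a member of the BCL2 family (0.24), Ctsz, cathepsin Z (0.24), and Cd14, a receptor for bacterial lipopolysaccharide (0.24). Nearest to Grn were Hcls1, an actin-binding protein of blood cells (0.11), Fyb, an adaptor protein (0.12), and Ctsl, cathepsin L (0.12). These 6 genes were chosen for their likeness, so their values are a description: between APP/PS1 and WT their log2 fold changes were 1.83 to 3.26. As all genes share the same 10 libraries and the same groups, a like profile says nothing of shared control.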

How the data were processed

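The deposited files hold whole-number read counts per gene symbol, 1 file for each of the 10 libraries, made by the authors from paired-end reads of ribosomal-RNA-depleted libraries aligned with TopHat to mm10 (version not given in the sources used here); the annotation and the use of strand in counting were not given. Symbols on more than 1 line (43) were summed, which left 24421.

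Groups were taken from the labels. Genes were filtered (filterByExpr, 18727 kept), scaled by TMM and tested with edgeR 4.0.16 (R 4.3.3) in 1 quasi-likelihood model of the 3 groups, with Benjamini-Hochberg adjustment over all genes tested. The biological coefficient of variation was 27.4%. The spread between groups of 3 or 4 libraries limits precision, and for Rab7b so does its low count. Scaled log2 CPM used a prior count of 2. Ratios and marker-relative values were compared by exact two-sided permutation tests. DESeq2 1.42.0, limma 3.58.1, other normalizations and filters, a replicate block and leaving out each library were the alternatives. The script was tested on simulated data with the same spread for all genes. Log2 changes of 1 were recovered in 24.2% (APP/PS1 against WT), 30.3% (APP/PS1+N-AS against APP/PS1) and 21.1% (APP/PS1+N-AS against WT). For log2 changes of 2 it was 97.2%, 97.8% and 96.5%. A gene with that simulated spread that was not called can therefore still differ by this smaller amount. The 5 members not called in APP/PS1 against WT had fitted SEs of 0.13 to 0.21, and these shares need not hold for them.

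The genes named were the 10 members, fixed relatives, from each list and comparison up to 3 called genes with the largest change in each direction (or, with none called, the 2 with the lowest p), and the 3 profiles nearest to Cd68 and to Grn. Members and lists were chosen with earlier results of these data known. Genes with fewer reads than the filter asks (Mcoln2, Slpi, Vamp7 and Tfec) were not tested, and Borcs5, Borcs6 and Borcs7 were not matched. Some single genes of the lists are counted but not reported here by name.

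Replicate numbers were checked for pairing. Between APP/PS1+N-AS and APP/PS1, same-numbered libraries deviated together (lowest r = 0.14 across genes, mean 0.24, against −0.08 for other pairs). However, APP/PS1+N-AS replicate 2 had a higher r with APP/PS1 replicate 1 (0.17) than with APP/PS1 replicate 2 (0.14). APP/PS1+N-AS replicate 3 had a higher r with APP/PS1 replicate 4 (0.32) than with APP/PS1 replicate 3 (0.31). Only APP/PS1+N-AS replicate 1 had its highest r with its same-numbered library (0.28). The numbers were therefore not shown to pair these libraries, and the replicate block changed no call there. Gene positions are from GENCODE M21 and promoter windows from RefSeq, both on GRCm38, the assembly of mm10.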

Additional observations from a re-analysis of the deposited data

How the results depend on the processing

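Between APP/PS1 and WT, 6 of the 10 genes passed at an unadjusted p under 0.05 by edgeR, all higher, beside 8.3% of all genes higher and 8.9% lower. Under the alternatives with adjustment 4 or 5 were called, and 5 in all but the replicate block (4, with Rab7b at an adjusted p of 0.0595 by edgeR) and the fits without WT replicate 1 or 2. Over all genes these alternatives called 299 to 1297, beside 649 in the main fit. Between APP/PS1+N-AS and APP/PS1 none was called under any alternative with adjustment, and 5 were lower at an unadjusted p under 0.05, beside 4.05% of all genes. Between APP/PS1+N-AS and WT the count of 1 became 2 with a filter of at least 1 read, with at least 10 counts in every library and with the library number set as a covariate, 3 with DESeq2, 5 at an unadjusted p (beside 3.64% of all genes higher), and 0 with the 2 groups alone. Over all genes the 35 calls of the main fit became 45, 37, 64, 180 with DESeq2, and 2 with the 2 groups alone. With the replicate block the count of members was 0 (Cd68, adjusted p = 0.0577 by edgeR), and 5 of all genes were called. Replicate numbers did not pair these libraries (lowest r = −0.14), nor those of APP/PS1 and WT (lowest r = −0.49). Leaving out 1 library gave 0 to 3, with 0 without WT replicate 1, WT replicate 2, APP/PS1+N-AS replicate 1 or APP/PS1+N-AS replicate 2, and 3 (Cd68, Laptm5 and Grn) without APP/PS1+N-AS replicate 3. Over all genes these fits called 1 to 116, the most without APP/PS1+N-AS replicate 3. The cause was not tested, except that these fits hold fewer samples.

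Relative to the microglial marker mean, the sign turned for Lamp1 (−0.84), Lamp2 (−0.37), Scarb2 (−1.0004) and Psap (−0.85) in APP/PS1 against WT. It turned for Lamp1 (0.28), Lamp2 (0.10), Tmem106b (0.49), Scarb2 (0.33), Psap (0.33) and Npc1 (0.46) in APP/PS1+N-AS against APP/PS1, and for Lamp1 (−0.56), Lamp2 (−0.26), Scarb2 (−0.67) and Psap (−0.52) in APP/PS1+N-AS against WT. Tmem106b, never called, turned in APP/PS1 against WT with limma (0.016) and without APP/PS1 replicate 1 (0.028) or WT replicate 3 (0.23). In APP/PS1+N-AS against APP/PS1 it turned with the replicate block (0.010), with the library number set (0.037) and without APP/PS1+N-AS replicate 1 (0.078) or 2 (0.021) or APP/PS1 replicate 3 (0.022) or 4 (0.010), and in APP/PS1+N-AS against WT without APP/PS1+N-AS replicate 1 (0.030) or WT replicate 3 (0.19). Scarb2 turned there without WT replicate 1 (−0.013). Over all fits that left out 1 library, Tmem106b ran from −0.18 to 0.23, from −0.22 to 0.078 and from −0.24 to 0.19 in the 3 comparisons, and Scarb2 in the last from −0.013 to 0.15. Of the values for single genes and ratios, 587 were counted as unchanged. Where a test could pass, these kept their direction and call. With no test, or a test that could not pass at this size, they moved by less than the SD or kept their direction. For uncalled genes these could turn in sign, as Tmem106b in APP/PS1 against WT within libraries 1 to 6 (0.037, beside −0.049). A further 13 lost a call and 7 gained one. Another 23, with no test or a test that could not pass at this size, moved by more than the SD. Among the 13 were Cd68, Laptm5, Grn and Rab7b relative to the markers in APP/PS1 against WT. For Cd68, Laptm5 and Grn the exact permutation p there was the smallest possible (0.0286), or 0.0952 adjusted over the 30 tests. To pass, most of the 30 tests would have needed that smallest p, so the loss of these 3 calls cannot decide whether the differences held.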

Other observations

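Markers of cell types other than microglia and oligodendrocytes were also summed in each library. Astrocyte markers had sums from 2240 to 2672 CPM in the WT libraries, from 2458 to 3934 CPM in those of APP/PS1 and from 2283 to 3336 CPM with N-AS, and 1 of 8 was called higher in each transgenic group than in WT. Neuronal markers summed to 1488 to 5003, 1966 to 2349 and 2025 to 2889 CPM, endothelial markers to 471 to 1312, 1008 to 1115 and 934 to 1077 CPM, and pericyte and smooth muscle markers to 443 to 1897, 835 to 1080 and 906 to 1162 CPM in the same order. None of the markers of these 3 cell types was called by edgeR, and 0 had an unadjusted p under 0.05. Border macrophage markers, of cells that also make Cd68, were low and overlapped between groups (29.7 to 46.2, 25.6 to 51.4 and 23.5 to 50.6 CPM). Monocyte and neutrophil markers summed to 8.24 to 22.0, 13.9 to 123 and 12.3 to 25.8 CPM, the highest in APP/PS1 replicate 3, where Cd68 was at 65.5 CPM, within the range of the other APP/PS1 libraries. The part of border macrophages, monocytes or neutrophils in the Cd68 values was not tested. In APP/PS1+N-AS the oligodendrocyte markers summed to 2815 to 3813 CPM.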
